A study of Mus musculus with 12 samples.

Results

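The Wnt ligands, their receptors, their secreted antagonists and the intracellular Axin, Lef1 and Tcf7 genes were described in embryonic mouse retina with and without Tbr2. Members were the protein-coding genes of the table of 12 libraries whose symbol begins with Wnt, Fzd, Sfrp, Dkk or Rspo and a digit, or with Tcf7, or is Lgr4, Lgr5, Lgr6, Lrp5, Lrp6, Frzb, Wif1, Axin1, Axin2 or Lef1. This gave 49 of 19954 listed genes, of which 16220 were protein coding. They comprised 15 Wnt ligands, 12 Fzd and Lrp receptors, 9 secreted antagonists, 7 R-spondins and Lgr receptors, and 6 intracellular genes. These roles were assigned by gene symbol alone. Each library held RNA of a pool of 12 retinas of C57BL/6 mice at E15.5, a stage of embryonic development, and pools drew on several litters. Groups were wildtype males, Tbr2f/f;Six3-Cre males, wildtype females and Tbr2f/f;Six3-Cre females, with 3 libraries each, numbered 4, 5 and 6. The wildtype label names no Cre and no floxed allele, so Cre itself and loss of Tbr2 cannot be told apart. Six3-Cre drives Cre recombinase in the developing eye field, and Tbr2, a T-box transcription factor, is listed as Eomes.

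Wnt proteins are lipid-modified secreted ligands that bind Frizzled receptors, encoded by the Fzd genes. In the canonical branch a Frizzled and an Lrp5 or Lrp6 coreceptor together halt the Axin complex that marks beta-catenin for destruction, and beta-catenin then acts with TCF and LEF factors in the nucleus. Sfrp proteins, Frzb and Wif1 bind ligands outside the cell, Dkk1 and Dkk2 act on the Lrp coreceptors, and R-spondins bind Lgr receptors and keep Frizzleds at the cell surface. In the eye the pathway is known for the pigment epithelium, the ciliary margin and the vessels.

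Total counts per library lay between 18514607 and 27072825. Eomes, the targeted gene, lay at 9.62 to 27.4 CPM (counts scaled to the library total) in the mutant libraries and at 53.4 to 76.1 CPM in the wildtype ones. The mutant sexes did not overlap, at 24.9, 21.2 and 27.4 CPM in males and 9.62, 15.2 and 16.1 CPM in females. The mitochondrial transcript mt-Nd6 split the libraries into 5 at 373 to 484 CPM and 7 at 9.70 to 48.4 CPM, and each genotype and sex had libraries of both kinds. Summed markers of retinal progenitors lay at 6220 to 7543 CPM and those of ganglion cells at 3070 to 3419 CPM. Lens markers, of which 12 of 13 were listed, summed to 10.3 to 826 CPM in wildtype and 5.56 to 2010 CPM in mutant libraries, with the highest sum in mutant female 5.

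In wildtype retina Dkk3 and Sfrp2, grouped here with the secreted antagonists by symbol, stood far above every other member, and most ligand genes were scarce. Whether Dkk3 acts as a Wnt antagonist was not tested. By FPKM, a count per gene length and library size that allows genes to be compared, the wildtype median was 400 for Dkk3 and 369 for Sfrp2. The ranges of these 2 genes overlapped, at 387 to 423 and 298 to 517 FPKM. Fzd5, a Frizzled of retinal progenitors, followed at 60.1 FPKM, apart from both its neighbours in all 6 wildtype libraries. Lgr4, an R-spondin receptor, came next at 30.6 FPKM, and its range overlapped that of Sfrp1 at 26.6 FPKM. Fzd3, Axin1, Fzd2 and Lrp5 lay close together at 21.2, 20.7, 19.97 and 18.7 FPKM, and each overlapped its neighbour in this order. Lrp6 at 14.3 FPKM overlapped Tcf7l1 at 12.0 FPKM. Thus 11 members had a median over 10 FPKM, 16 lay between 1 and 10, and 22 lay under 1. All 12 receptors reached at least 1 FPKM, whereas 11 of 15 ligands did not.

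**Figure D1:**
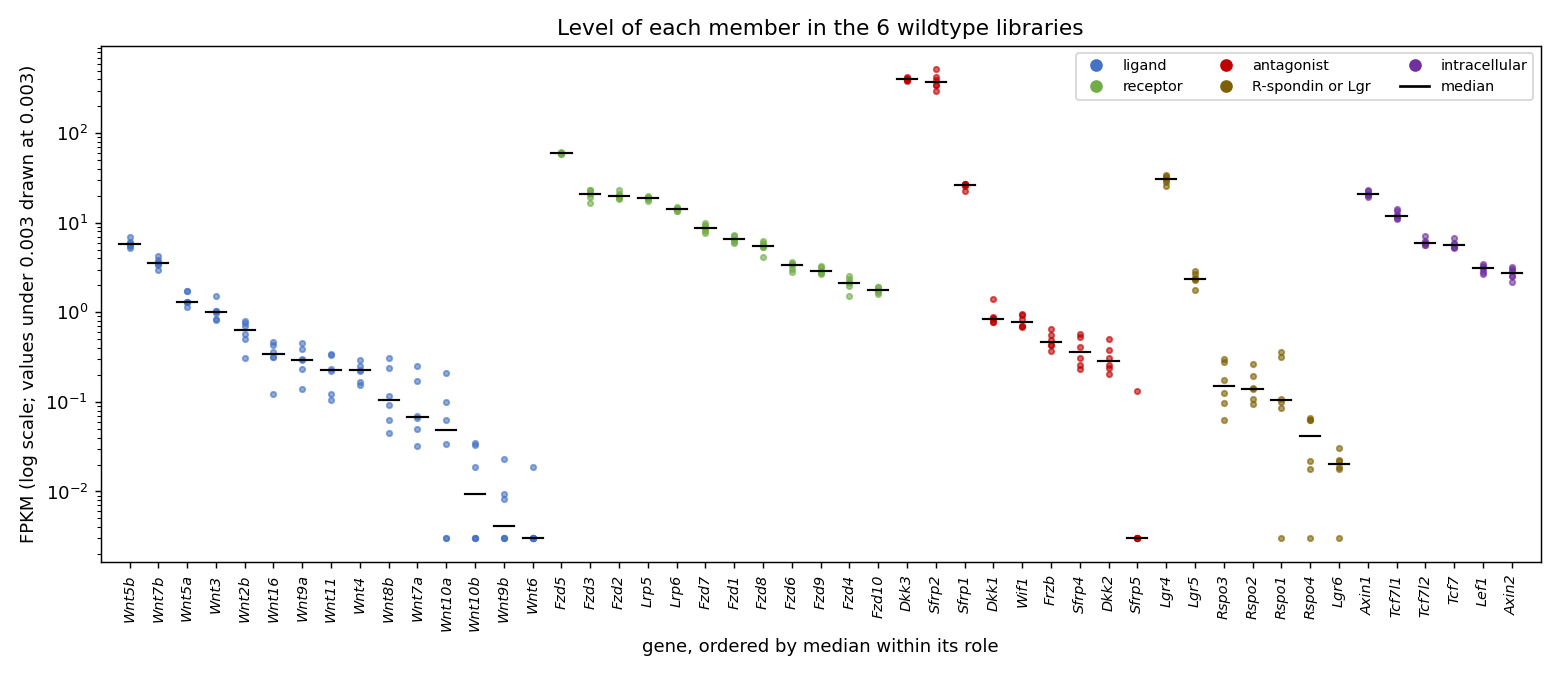
FPKM on a log scale (vertical axis) of each of the 49 members (horizontal axis), grouped and coloured by role, in the 6 wildtype libraries. Points are libraries, bars are medians, and values under 0.003 are drawn at 0.003. Dkk3 and Sfrp2 sit highest at medians of 400 and 369 FPKM, and 11 of 15 ligands have a median under 1 FPKM.

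Single genes made up a large share of several families. Wnt5b held 42.2% ± 3.55 (SD, n = 6) of the summed ligand FPKM in wildtype and Wnt7b held 25.7% ± 2.61. Fzd5 held 45.4% ± 1.45 of the Frizzled FPKM in wildtype and 45.4% ± 1.25 in mutant libraries (n = 6 each). Lgr4 held 92.6% ± 1.12 of the FPKM of the Lgr receptors, Sfrp2 93.5% ± 1.001 of that of the Sfrp genes and Dkk3 99.7% ± 0.0904 of that of the Dkk genes in wildtype. Tcf7l1 held 45.1% ± 2.27 of the FPKM of the Tcf7 and Lef1 factors. Summed ligand FPKM was 14.0 ± 0.685 in wildtype and 15.2 ± 2.22 in mutant libraries, and summed Frizzled FPKM was 132 ± 3.20 and 139 ± 10.9 (n = 6 each). Both sums differed between the genotypes by less than the SD of the mutant libraries but by more than that of the wildtype ones. Neither difference was tested.

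Wnt4, a ligand gene known from kidney and gonad development, fell in the mutant and was the only member past the threshold, an adjusted p of 0.05. It lies at chr4:137277489-137299726 on the plus strand in mm10 (ENSMUSG00000036856), and no exon of another gene in GENCODE M21 overlaps it. The wildtype males gave 24, 27 and 22 counts and the mutant males 2, 1 and 6. Wildtype females gave 19, 19 and 13 counts and mutant females 1, 0 and 1. Every mutant library was below every wildtype library, and mutant male 6 was the highest of the mutants. Levels were 0.924 ± 0.223 CPM in wildtype and 0.0940 ± 0.117 CPM in mutant libraries (SD, n = 6 each). In this bulk RNA, fewer cells with Wnt4 and less Wnt4 RNA per cell cannot be told apart.

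Over both sexes the log2 difference of Wnt4 between mutant and wildtype was -3.34 (SE 0.47, 95% interval -4.35 to -2.33, adjusted p = 0.0361 by the edgeR quasi-likelihood test with Benjamini-Hochberg adjustment). Only 4 of 15467 genes tested passed, or 0.0259%, all of them lower in the mutant. Summed over the libraries and scaled to their totals, Wnt4 RNA in mutant males was 14.4% of that in wildtype males (73 against 9 counts, 95% exact interval 6.33 to 28.8). In females it was 3.93% (51 against 2 counts, interval 0.464 to 15). Both intervals cover counting error only. Eomes was also lower in every mutant female library than in every mutant male library, and a relation to Wnt4 was not tested. Wnt4 made up 1.57% ± 0.370 of the ligand FPKM in wildtype and 0.150% ± 0.175 in mutant libraries, so it was a small part of the ligand pool in either genotype.

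Within males the log2 difference of Wnt4 was -2.75 (SE 0.60, unadjusted p = 0.00185, adjusted p = 0.994), and within females -4.44 (SE 0.69, unadjusted p = 0.000165, adjusted p = 0.618), by the same edgeR test. Neither passed over all genes. The difference between the sexes was -1.68 (SE 1.004, unadjusted p = 0.12, adjusted p = 1 in edgeR), with an interval from -3.86 to 0.51, and it was -0.68 without mutant male 6. The authors' deposited table for the 2 sexes together gives Wnt4 an adjusted p of 1.52e-05 (DESeq2). It is 0.999 in the authors' deposited table of males and 0.59971 in that of females. The log2 fold changes of Wnt4 in these are -0.402, -0.234 in males and -0.171 in females. They are much smaller in size than the edgeR differences, and the larger of the sexes is that of males. The reason was not tested. The edgeR call of Wnt4 over both sexes rested on few counts. Leaving out each library in turn, the difference ran from -4.09 to -3.11, and it passed in 2 of 12 such fits, those without mutant male 6 (adjusted p = 0.00234) or mutant female 5 (adjusted p = 0.0363, edgeR). Without each of the other 10 libraries in turn it missed the threshold, at adjusted p of 0.0829 to 0.196. Among the 5 libraries with high mt-Nd6 it was -3.56 (adjusted p = 0.461) and among the 7 low ones -3.27 (adjusted p = 0.543, edgeR). Without the 3 libraries highest in the lens gene Cryaa it was -2.93 (adjusted p = 0.51).

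Sequence upstream of Wnt4 is shown because it was the member that fell, and stretches of Wnt11 and Wnt5b because these held the only matches to the searched motifs among the members. RefSeq promoters of 300 bases, 250 before and 50 after a start, were at hand for 33 of 49 members, with 41 promoters in GRCm38.p6, the assembly that mm10 names. The T-box motif TCACACC, searched on both strands, was in 0 of 41 and in 3.98% of 32851 promoters of all genes. The TCF and LEF motif CTTTGAT, searched on both strands, was in 2 of 41 promoters (4.88%) and in 3.73% of all. The Wnt4 stretch of 104 bases ends at the base before its first annotated exon, chr4:137277385-137277488, plus strand. The Wnt11 stretch is chr7:98835021-98835107, plus strand, with the motif as its reverse complement beginning 51 bases before the start. The Wnt5b stretch is chr6:119449411-119449497, minus strand, before a start inside the listed span of the gene, with the motif beginning 71 bases before it. Capitals mark the motif, and each is written 5′ to 3′ on the strand of the gene:
Wnt4: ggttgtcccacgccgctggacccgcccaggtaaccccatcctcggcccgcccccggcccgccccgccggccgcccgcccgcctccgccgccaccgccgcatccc
Wnt11: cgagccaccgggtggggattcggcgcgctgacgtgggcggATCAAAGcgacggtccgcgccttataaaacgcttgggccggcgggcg
Wnt5b: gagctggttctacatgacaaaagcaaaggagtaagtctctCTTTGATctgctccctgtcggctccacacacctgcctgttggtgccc
The Wnt4 promoter held neither motif, and G and C made up 85.2% of the 250 bases before its RefSeq start. That start lies inside the listed span of the gene, and only the 104 bases shown precede the first annotated exon. A match describes these letters and says nothing of binding, and the lack of a match covers this window alone.

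**Figure D2:**
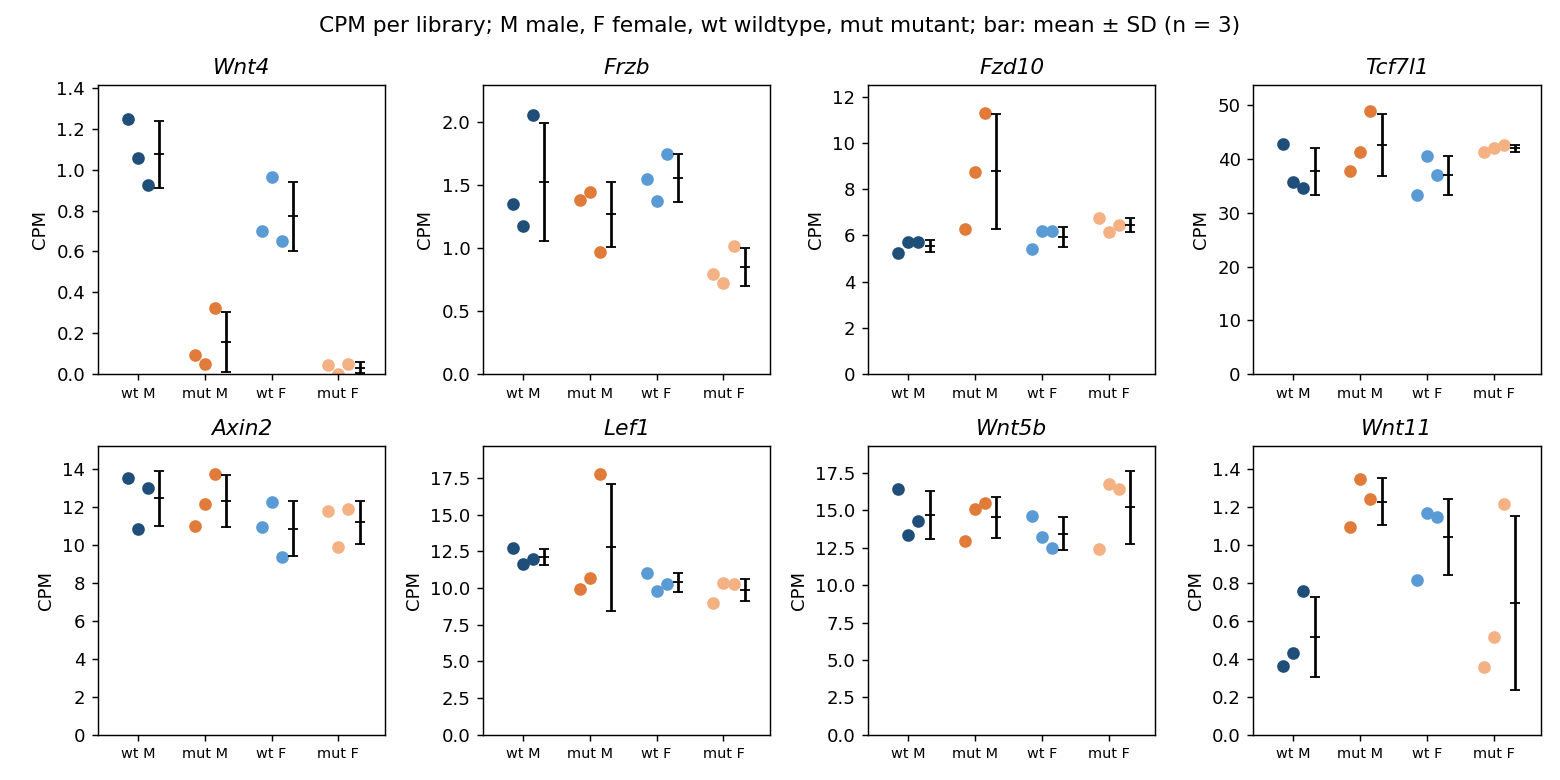
CPM (vertical axes, from 0) of Wnt4, Frzb, Fzd10, Tcf7l1, Axin2, Lef1, Wnt5b and Wnt11 in each library of the 4 groups of 3 (horizontal axes; wt wildtype, mut mutant, M male, F female). Points are libraries and bars are the mean ± SD of 3 libraries. Wnt4 is low in all 6 mutant libraries, and mutant male 6 stands high for Fzd10 and Lef1.

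Among the other ligands, none passed the threshold in any comparison. The ligands most abundant per length were Wnt5b and Wnt7b. Wnt5b, a ligand of the beta-catenin-independent branch, lay at 16.4, 13.3 and 14.3 CPM in wildtype males, 13.0, 15.1 and 15.501 in mutant males, 14.6, 13.2 and 12.5 in wildtype females and 12.4, 16.8 and 16.4 in mutant females. The genotypes overlapped in both sexes, and the log2 difference was 0.07 (SE 0.10, interval -0.14 to 0.28, adjusted p = 0.918 in edgeR). Wnt7b, a canonical ligand, lay at 10.4, 12.9 and 14.9 CPM in wildtype males, 12.1, 18.0 and 16.7 in mutant males, 13.4, 12.1 and 11.9 in wildtype females and 10.4, 23.7 and 12.8 in mutant females. Mutant female 5, the library with the highest lens sum, stood highest. The log2 difference was 0.30 (SE 0.18, interval -0.08 to 0.68, adjusted p = 0.918 in edgeR), and it was 0.11 without mutant female 5 and 0.03 without the 3 libraries highest in Cryaa. Its direction turned between the mt-Nd6 sets, at -0.20 among the 5 high libraries and 0.52 among the 7 low ones (adjusted p = 0.735 and 0.558, edgeR). Against the lens sum over 12 libraries Wnt7b had r = 0.41 and rho = 0.30 (permutation p = 0.19 and 0.34, adjusted p = 0.74 and 0.69), with r = 0.38 without the 2 libraries farthest from the median and 0.51 within the 7 low ones. Wnt5a and Wnt3 followed by FPKM, with log2 differences of 0.07 (SE 0.12) and 0.08 (SE 0.17).

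Wnt11, a ligand known for cell movements in the embryo, lay at 0.364, 0.430 and 0.756 CPM in wildtype males and 1.10, 1.35 and 1.24 in mutant males. In females it lay at 0.813, 1.17 and 1.15 CPM in wildtype and 0.355, 0.513 and 1.21 in mutant libraries. The males did not overlap and were higher in the mutant, while the females overlapped. The log2 difference was 1.24 in males (SE 0.39, unadjusted p = 0.0139, adjusted p = 0.994) and -0.60 in females (SE 0.47, unadjusted p = 0.241, adjusted p = 0.986), by edgeR. Its difference between the sexes was -1.82 (SE 0.63, unadjusted p = 0.0132, adjusted p = 1 in edgeR), the smallest unadjusted p of any member in that test, and it did not pass. These values rest on 7 to 26 counts per library. The remaining ligands tested were Wnt2b, Wnt7a, Wnt8b, Wnt9a and Wnt16, with log2 differences over both sexes from -0.39 (Wnt2b, SE 0.26) to 0.61 (Wnt8b, SE 0.53). Wnt6, Wnt9b, Wnt10a and Wnt10b had too few counts to be tested. The table of males listed Wnt2 in place of Wnt6, with 1 read in all, in mutant male 5.

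None of the 12 receptor genes passed the threshold, and 10 of 12 had a higher estimate in the mutant with a median log2 difference of 0.07. Fzd5 lay at 423, 405 and 419.6 CPM in wildtype males, 392, 436 and 507 in mutant males, 405, 413 and 418 in wildtype females and 418, 439 and 429 in mutant females. Apart from mutant male 6 these values lay close together, and the log2 difference was 0.07 (SE 0.06, interval -0.05 to 0.19, adjusted p = 0.918 in edgeR). Fzd3, a receptor known for axon guidance, lay at 90.03, 96.0 and 69.3 CPM in wildtype males, 94.2, 81.5 and 62.6 in mutant males, 97.6, 80.9 and 86.7 in wildtype females and 112, 95.3 and 78.2 in mutant females. Its groups overlapped, with a log2 difference of 0.00 (SE 0.13, interval -0.28 to 0.28).

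Fzd10, a Frizzled receptor gene at chr5:128600844-128604093, had the smallest unadjusted p of the receptors. Values were 5.25, 5.70 and 5.71 CPM in wildtype males, 6.29, 8.74 and 11.3 in mutant males, 5.43, 6.20 and 6.19 in wildtype females and 6.74, 6.15 and 6.46 in mutant females. Mutant males lay above wildtype males without overlap, with mutant male 6 highest, and the females overlapped. The log2 difference was 0.38 over both sexes (SE 0.15, unadjusted p = 0.0223, adjusted p = 0.918), 0.66 in males (SE 0.23, adjusted p = 0.994) and 0.12 in females (SE 0.16, adjusted p = 0.986), by edgeR. Without mutant male 6 it was 0.25 over both sexes. The difference between the sexes was -0.53 (SE 0.27, unadjusted p = 0.0709). For the coreceptor genes Lrp5 and Lrp6 the log2 differences were 0.11 (SE 0.07) and 0.03 (SE 0.07). The direction of the small receptor differences depended on which libraries were compared: 6 of 12 were higher within the libraries high in mt-Nd6. Scaling changed it little, with 11 of 12 higher with RLE size factors and 10 of 12 in the main fit.

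None of the 8 antagonist genes tested passed, and 5 of 8 had a lower estimate in the mutant with a median log2 difference of -0.06. Dkk3, a divergent member of the Dickkopf family, lay at 1316, 1362 and 1387 CPM in wildtype males, 1302, 1384 and 1459 in mutant males, 1298, 1322 and 1419 in wildtype females and 1258, 1304 and 1351 in mutant females. It varied least of the 34 members with at least 1 CPM on average, with a coefficient of variation of 4.30% over the 12 libraries. Its log2 difference was -0.01 (SE 0.04, interval -0.11 to 0.08, adjusted p = 0.955 in edgeR). Sfrp2, a secreted Frizzled-related protein gene, lay at 791, 685 and 688 CPM in wildtype males, 844, 832 and 1036 in mutant males, 846, 1035 and 597 in wildtype females and 857, 859 and 704 in mutant females. In males the mutant libraries were all higher, at a log2 difference of 0.33 (SE 0.12, unadjusted p = 0.0245, adjusted p = 0.994 in edgeR). Among females the wildtype libraries spanned the mutant ones, at -0.03 (SE 0.18), and over both sexes the difference was 0.14 (SE 0.12).

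Frzb, a secreted ligand-binding antagonist gene at chr2:80411970-80447625, had the smallest unadjusted p of the antagonists. Values were 1.35, 1.17 and 2.06 CPM in wildtype males, 1.38, 1.45 and 0.972 in mutant males, 1.55, 1.37 and 1.75 in wildtype females and 0.798, 0.726 and 1.02 in mutant females. Mutant females lay below wildtype females without overlap, and the males overlapped. The log2 difference was -0.57 over both sexes (SE 0.22, unadjusted p = 0.0234, adjusted p = 0.918), -0.88 in females (SE 0.30, unadjusted p = 0.0181, adjusted p = 0.986) and -0.26 in males (SE 0.34, adjusted p = 0.994), by edgeR. The difference between the sexes was -0.61 (SE 0.42, unadjusted p = 0.174). Counts of Frzb were 17 to 49 per library. Wif1, Sfrp4, Dkk1, Dkk2 and Sfrp1 had log2 differences from -0.41 (Sfrp4, SE 0.32) to 0.30 (Dkk2, SE 0.30), and Sfrp5 had too few counts to be tested. Sfrp4 was the only member with an unadjusted p under 0.05 between the sexes, at -0.73 in females against males over both genotypes (SE 0.32, unadjusted p = 0.0392, adjusted p = 0.879 in edgeR).

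Of the R-spondin and Lgr genes, 5 of 7 were tested and none passed. Lgr4 lay at 144, 173 and 130.1 CPM in wildtype males, 173, 149 and 128 in mutant males, 159, 151 and 167 in wildtype females and 175, 136 and 147 in mutant females. Its groups overlapped, with a log2 difference of -0.03 (SE 0.10, interval -0.24 to 0.18). Lgr5, an R-spondin receptor known as a stem cell marker in the gut, lay at 12.9, 11.5 and 8.56 CPM in wildtype males, 12.3, 12.5 and 9.07 in mutant males, 11.3, 14.0 and 10.99 in wildtype females and 16.8, 13.0 and 11.6 in mutant females. Mutant female 4 was highest, and the log2 difference was 0.11 (SE 0.14, interval -0.19 to 0.41). The R-spondin genes were scarce, with a summed FPKM of 0.532 ± 0.223 in wildtype and 0.716 ± 0.598 in mutant libraries (SD, n = 6 each). Rspo1 had the largest log2 difference upwards of the 42 tested members, 1.17 (SE 0.71, unadjusted p = 0.123), with 2.05 CPM in mutant female 5 and at most 0.673 CPM in the other mutant libraries.

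The intracellular genes include Axin2 and Lef1, which are commonly read as targets of canonical signalling, and neither passed the threshold. Axin2 lay at 13.5, 10.8 and 13.0 CPM in wildtype males, 11.01, 12.2 and 13.7 in mutant males, 10.9, 12.2 and 9.34 in wildtype females and 11.8, 9.87 and 11.9 in mutant females. The genotypes overlapped in both sexes, and the log2 difference was 0.01 (SE 0.10, interval -0.20 to 0.22, adjusted p = 0.987 in edgeR). Lef1 lay at 12.7, 11.6 and 12.0 CPM in wildtype males, 9.91, 10.7 and 17.8 in mutant males, 11.04, 9.81 and 10.3 in wildtype females and 9.004, 10.3 and 10.2 in mutant females. Mutant male 6 stood above all other libraries. The log2 difference was -0.01 (SE 0.13, interval -0.29 to 0.28, adjusted p = 0.995 in edgeR), and it was -0.15 without mutant male 6.

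Axin1, the scaffold of the destruction complex, lay at 87.2, 77.1 and 85.0 CPM in wildtype males, 76.6, 92.8 and 105 in mutant males, 76.6, 79.5 and 73.6 in wildtype females and 79.9, 84.7 and 88.1 in mutant females. Mutant females were just above wildtype females, and the log2 difference was 0.13 (SE 0.07, interval -0.01 to 0.28, adjusted p = 0.918 in edgeR). Tcf7l1, a TCF factor known mainly as a repressor, lies at chr6:72626378-72789254. It lay at 42.8, 35.8 and 34.6 CPM in wildtype males, 37.8, 41.3 and 49.0 in mutant males, 33.4, 40.6 and 37.1 in wildtype females and 41.3, 42.1 and 42.6 in mutant females. Mutant females were above wildtype females without overlap, and the males overlapped. The log2 difference was 0.18 (SE 0.08, interval 0.01 to 0.34, unadjusted p = 0.0416, adjusted p = 0.918 in edgeR). Tcf7 and Tcf7l2 had log2 differences of 0.07 (SE 0.09) and 0.05 (SE 0.09).

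Across all members, 42 of 49 had counts enough for the test, and the other 7 had at most 18 counts in any library. Over both sexes 14 had a lower and 28 a higher estimate in the mutant, with a median log2 difference of 0.07, against -0.01 over all 15467 genes tested. With RLE size factors 12 were lower and 30 higher, and among the 5 libraries with high mt-Nd6 23 of 43 were lower and 20 higher. At an unadjusted p under 0.05 there were 4 of 42 (9.52%), against 2.92% of all genes. Of these, 2 were lower, Wnt4 and Frzb, against 1.5% of all genes, and 2 were higher, Fzd10 and Tcf7l1, against 1.42%. Leaving out Wnt4, which the members were chosen to include, the share was 7.32% of the other 41. Their smallest adjusted p was 0.918 (edgeR). Apart from Wnt4, log2 differences ran from -0.57 (Frzb) to 1.17 (Rspo1).

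**Figure D3:**
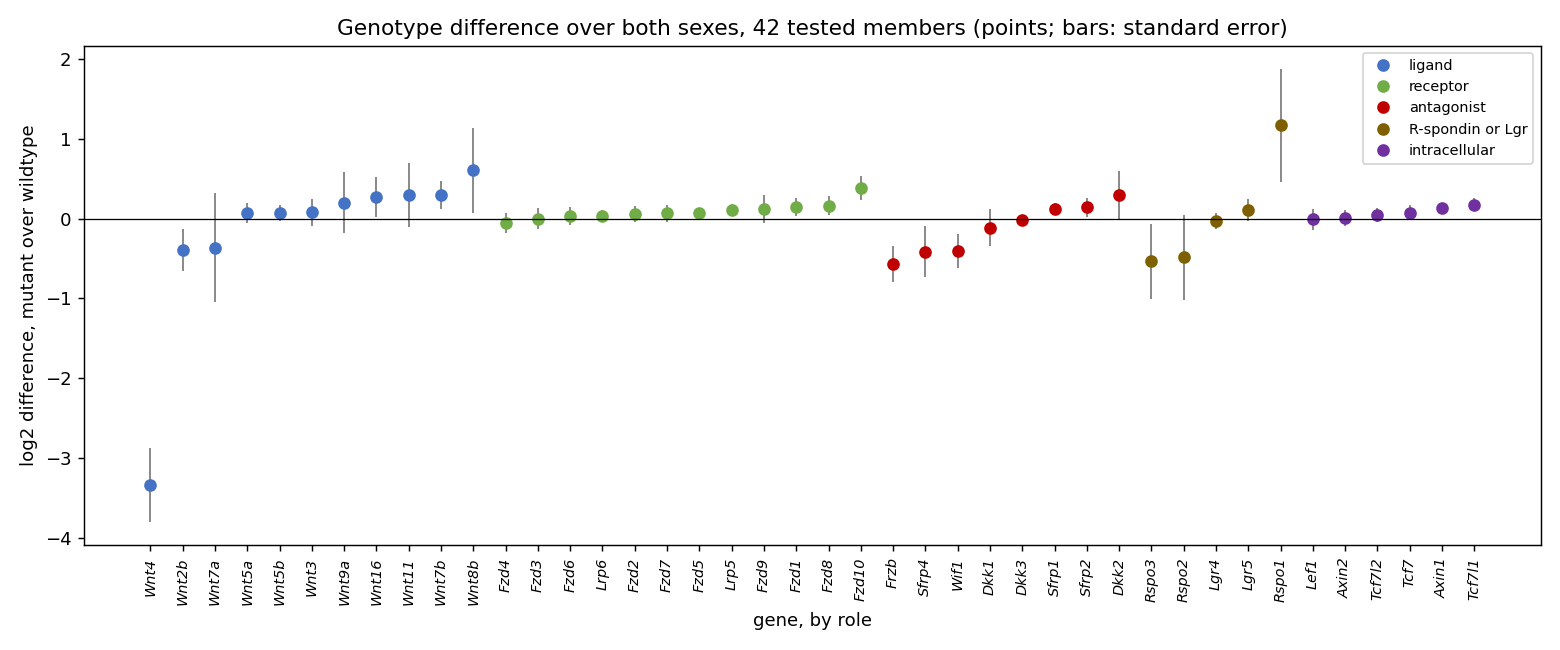
Log2 difference of mutant over wildtype over both sexes (vertical axis) for the 42 tested members (horizontal axis), grouped and coloured by role, with bars of the standard error. Wnt4 stands at -3.34, and the other members lie between -0.57 and 1.17.

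Within males 0 of 38 tested members passed, as did 0 of 14945 genes by edgeR (0%), while DESeq2 called 6 genes and limma voom 0. At an unadjusted p under 0.05 there were 4 members in males, against 1.41% of all genes: 3 were higher, Fzd10, Sfrp2 and Wnt11 (0.716% of all genes), and 1 was lower, Wnt4 (0.689%). Within females 0 of 39 tested members passed, against 1 of 14956 genes by edgeR (0.00669%), 10 by DESeq2 and 1 by limma voom. The replicate block, which uses the shared library numbers, raised the genes called in females to 2 and left the members at 0. At an unadjusted p under 0.05 there were 2 members in females, against 2.63% of all genes. Both, Frzb and Wnt4, were lower (1.32% of all genes), and 0 were higher (1.31%). Wnt4 was the only member of 42 whose mutant libraries lay below the wildtype ones without overlap in each sex, a pattern held by 0.239% of all genes. No member was higher without overlap in each sex (0 of 42), against 0.155% of all genes. In males alone, Wnt4 was lower without overlap (1 of 42, against 3.04% of all genes), and Fzd10, Sfrp2, Tcf7l2, Wnt8b and Wnt11 were higher (5 of 42, against 2.47%). In females alone, Frzb and Wnt4 were lower (2 of 42, against 3.89%), and Axin1, Rspo1 and Tcf7l1 were higher (3 of 42, against 4.21%). In the test of the difference between the sexes, 0 members and 0 genes passed by edgeR (0%), DESeq2 and limma voom, and at an unadjusted p under 0.05 there was 1 member, against 1.73% of all genes. It was Wnt11, with the lower value in females (0.782% of all genes), and 0 members had the higher value in females (0.944%). For females against males over both genotypes, 0 members passed, against 2 genes (0.0129%), and at an unadjusted p under 0.05 there was 1 member, against 2.79%. It was Sfrp4, lower in females (1.57% of all genes), and 0 were higher (1.22%).

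**Figure D4:**
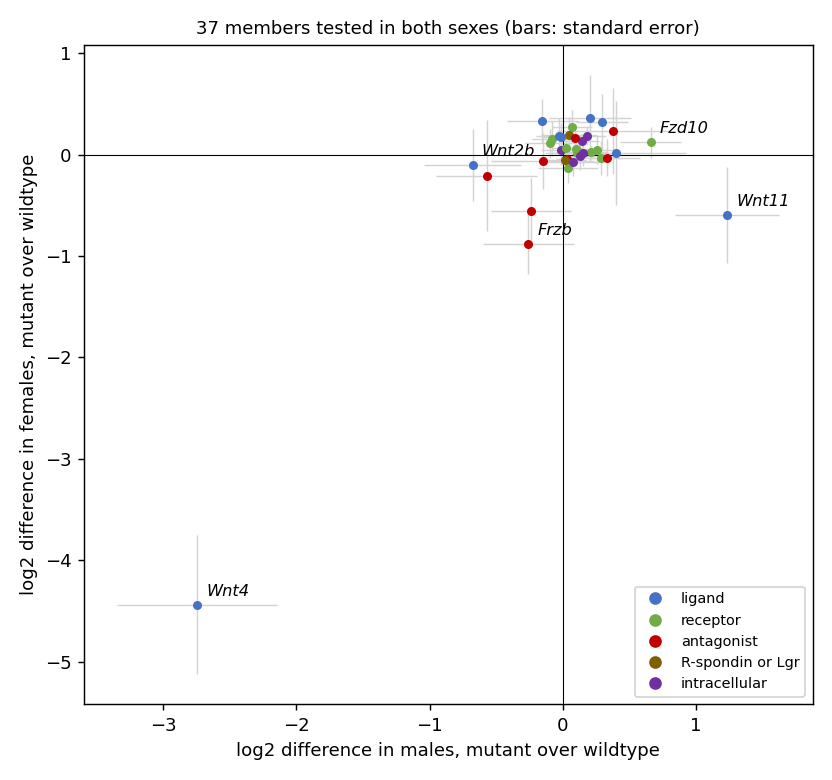
Log2 difference of mutant over wildtype in males (horizontal axis) and in females (vertical axis) for the 37 members tested in both sexes, coloured by role, with bars of the standard error in each direction. Wnt4 lies far down in both sexes at -2.75 and -4.44, and Wnt11 lies at 1.24 in males and -0.60 in females.

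The members also differed between libraries. Of the 34 members with at least 1 CPM on average, mutant male 6 was the highest or the lowest library for 20 (58.8%), against 57.8% of 13701 genes at that level. Mutant female 4 was the highest or the lowest for 10 (29.4%, against 27.9%). These libraries also had the fewest and the most genes with a read, 16903 in mutant male 6 and 19242 in mutant female 4. The other libraries had 17970 to 18496, and a relation to the extreme values was not tested. Wnt9a varied most, with a coefficient of variation of 48.9%, of which counting alone would give 20.9%. Members were correlated with the summed markers of pigment epithelium, of vessels and mesenchyme, of ciliary margin and of lens. By Pearson's r or by Spearman's rho, 0 of 136 correlations passed adjustment. An unadjusted p under 0.05 was reached by 7 with r and 12 with rho (permutation test), and the share over all genes was not computed. The pigment epithelium markers, 12 of 12 listed, summed to 72.7 to 101 CPM in wildtype and 62.7 to 90.6 CPM in mutant libraries. Those of the ciliary margin, 9 of 9 listed, summed to 584 to 639 and 537 to 667 CPM. Single genes weighed heavily in these sums, with Trpm1 at 33.1 to 53.3 CPM for pigment epithelium and Cdon at 215 to 255 CPM for ciliary margin. For vessels and mesenchyme Kdr lay at 167 to 199 CPM of a sum of 252 to 294 CPM. A correlation with a sum therefore need not follow the tissue. By r, the smallest p was that of the coreceptor gene Lrp6, with r = 0.70 and rho = 0.67 against the ciliary margin sum over 12 libraries (permutation p = 0.015 and 0.020, adjusted p = 0.74 and 0.51). Without the 2 libraries farthest from the median r was 0.45, and within the 7 libraries low in mt-Nd6 it was 0.38. By rho, the smallest p was that of Fzd8, a Frizzled receptor gene, with rho = 0.82 and r = 0.54 against the pigment epithelium sum (permutation p = 0.0017 and 0.066, adjusted p = 0.21 and 0.74). For Fzd8, r was 0.81 without the 2 libraries farthest from the median and 0.58 within the 7 low ones. The 5 libraries high in mt-Nd6 were too few for a value.

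The other genes of the pathway were given as a list of secretion factors, coreceptors and planar polarity genes, receptor turnover genes, destruction complex genes, nuclear partners and norrin signalling genes. Of 63 listed, 60 were tested and 0 passed in either direction over both sexes by edgeR, with 0 at an unadjusted p under 0.05, against 2.92% of all genes. Over both sexes estimates were lower for 24 and higher for 36, with a median log2 difference of 0.03 and a range from -0.32 to 0.21. The most abundant by wildtype FPKM were Ctnnb1 at 342, which encodes beta-catenin, and the casein kinase genes Csnk1a1 at 112 and Csnk1d at 76.3. Their log2 differences were 0.03 (SE 0.04), -0.11 (SE 0.09) and 0.05 (SE 0.04). Within females 0 of 60 passed by edgeR, and 4 had an unadjusted p under 0.05 (6.67%, against 2.63% of all genes). The planar polarity genes Celsr2 and Celsr3 and the kinase gene Gsk3a were higher, at log2 differences of 0.19 (SE 0.08), 0.19 (SE 0.08) and 0.17 (SE 0.07). Tle2, a corepressor gene, was lower at -0.50 (SE 0.20), and each of these 4 had an adjusted p of 0.986. Within males 0 of 59 passed, with 0 at an unadjusted p under 0.05, against 1.41% of all genes. Over both sexes, all 4 secretion and ligand modification genes had a lower estimate, and within each sex 3 of 4 did. Higher estimates were found for 11 of 14 coreceptor and planar polarity genes and 10 of 17 destruction complex genes. They were found for 6 of 10 nuclear partners, 5 of 9 receptor turnover genes and 4 of 6 norrin signalling genes. Of all genes tested 47.3% had a higher estimate. None of these pathway genes passed the threshold, and the lists were not tested.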

How the data were processed

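RNA was sequenced from 12 retina libraries. Per the submitters' processing notes, CASAVA, STAR 2.5 (mm10), HTSeq 0.6.1 and DESeq2 were used. Neither the annotation release nor the strand setting is given in the sources used here, so reads of overlapping genes on opposite strands cannot be told apart. This touches 10 members with an exon overlap in GENCODE M21 (Axin2, Fzd5, Fzd6, Lef1, Rspo3, Sfrp2, Tcf7l1, Wnt11, Wnt5a and Wnt7b). The overlapping genes had at most 9 counts on average, and those not listed were taken to have none. These counts set no limit on the number of reads affected.

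The authors deposited 3 tables, of both sexes, males and females. Per the file headers these hold raw counts, FPKM, gene lengths (another kind of value, in bases), log2 fold changes and p-values with adjusted p-values. Counts were identical between the tables. Deposited FPKM served only to compare levels between genes. The authors' log2 values entered no test. No step used 36 further columns, the size-factor-scaled signal and the FPKM of the tables of each sex.

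Counts were tested with edgeR 4.0.16 in R 4.3.3: TMM, filterByExpr, the quasi-likelihood test, two-sided, Benjamini-Hochberg over all genes tested, threshold 0.05. Terms were genotype and sex over 12 libraries. Males and females were also fitted alone (6 libraries each), and the interaction used all 12. CPM is counts over the library total. Intervals are 95%. Standard errors restate the F test. Replicates are pools of retinas, so a p-value reflects the spread of pools, not of single embryos. Correlations used log2(CPM + 0.5) and 100000 permutations. Summed counts were compared with an exact binomial interval. DESeq2 1.42.0, limma 3.58.1 (voom), RLE size factors, no filter, a term for mt-Nd6, library subsets, the replicate block and leaving out each library were the alternatives. Same-numbered females deviated together (r = 0.210, 0.213 and 0.138 over genes), while the values of males were mixed (-0.205, 0.008 and 0.293). Libraries of different numbers reached r = 0.184 in females and 0.436 in males, so these values cannot settle a pairing. The main fits were unpaired.

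Tests were checked on simulated counts, with changes planted only in genes of at least 1 CPM on average. At each fold 66 or 67 genes were changed, more than were called in these data, and the noise was independent between libraries. Recovery of members under 1 CPM, Wnt4 among them, was not simulated. At a simulated 1.5-fold change, the share recovered was 64.2% over both sexes (15268 genes), 23.9% in males (14875 genes) and 29.9% in females (14932 genes). At 2-fold it was 82.1%, 68.7% and 68.7%, and at 4-fold 98.5%, 97.0% and 95.5%. Genes named with values in every library were Wnt4, Axin2, Lef1, members with an unadjusted p under 0.05 over both sexes and the 2 members of each role highest in wildtype FPKM. Wnt11 and Sfrp4 were named for an unadjusted p under 0.05 in another test, and the values of Wnt11 in every library were added after they were seen. Other members given with a value, and Celsr2, Celsr3, Gsk3a and Tle2, were likewise chosen after their values were seen. Members and lists were chosen with earlier results of these data known.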

Additional observations from a re-analysis of the deposited data

Results flagged for a closer look

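With 6 libraries per genotype, 84 groups of values were examined for a library far from the other 5. For independent, normally distributed values the gap used arises in about 1 group in 20, and its share over all genes was not computed. Mutant male 6 was the highest or the lowest library for 57.8% of all genes with at least 1 CPM on average. Of the 84 groups, 11 stood apart. Mutant male 6 gave 5 of them: Fzd2 at 106 CPM against 64.4 to 79.6 in the other mutant libraries, Fzd9 at 12.0 against 5.72 to 7.69, Lef1 at 17.8 against 9.004 to 10.7, Fzd4 low at 5.56 against 7.33 to 8.16, and Wnt4 at 0.324 against 0 to 0.0953. Mutant female 5, the library with the highest lens sum, gave 3: Rspo1 at 2.05 CPM against 0.243 to 0.673, Rspo3 at 0.598 against 0.146 to 0.286, and Wnt7a at 1.03 against 0.0540 to 0.207. In wildtype, Dkk1 stood at 3.40 CPM in female 4 against 1.88 to 2.18. Sfrp1 was low at 99.9 CPM in wildtype female 6 against 113 to 119, and Wnt3 stood at 4.74 CPM in wildtype male 6 against 2.55 to 3.20.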

How the results depend on the processing

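The 4 genes called over both sexes became 15 with DESeq2, 9 with a term for mt-Nd6, 1 with the replicate block and 0 without the 3 libraries highest in Cryaa, and 1 to 5 when each library was left out. Member calls over both sexes went from 1 to 0 with the replicate block, within the libraries high in mt-Nd6, within those low in it and without the 3 libraries highest in Cryaa, and were 0 or 1 when each library was left out. Under the replicate block Wnt4 was at -3.38 (adjusted p = 0.231, edgeR), and whether the numbers pair the samples is not known. Calls in males went from 0 to 6 genes with DESeq2. In females the 1 gene became 10 with DESeq2, 2 with the replicate block and 0 to 2 when each library was left out. Members called within either sex stayed at 0 in each of these. Of the correlations, 0 or 1 passed when each library was left out: Fzd1 with lens without mutant male 6 (r = 0.89, adjusted p = 0.0354) and Fzd4 with pigment epithelium without mutant female 6 (r = -0.90, adjusted p = 0.0435, permutation test). Wnt4 was lower in the mutant in all 21 alternatives over both sexes, at -4.09 to -2.93, and passed in 7, with adjusted p from 5.21e-06 to 0.543. No alternative reversed a called value. Few counts limit the values of the 15 members with a mean under 1 CPM.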
